A study of Homo sapiens with 5 samples.

Results

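The genes described here are 44 mitotic and G2/M genes, named in a list and found in the deposited count table by their Entrez identifiers. All 44 were present among the 23459 genes of the table, and all 44 had enough counts to be tested. They were followed as a mitotic readout in MCF10A SAM cells, a derivative of the immortalised human mammary epithelial line MCF10A. Every library came from cells that express dCas9-VP64 and MCP-p65-HSF1, the parts of the Synergistic Activation Mediator that a guide RNA brings to a promoter, and per the labels single clones of these cells were picked. The control cells carried a non-targeting control guide (NTC, 3 libraries) and the JUN overexpression cells carried the guide sgJUN#1, which directs the activator to the JUN promoter (2 libraries). The study calls the replicates of this comparison biological and gives n = 2 for it, while 3 NTC libraries were deposited and are used here. The labels do not say whether the replicates were separate cultures or infections. The p-values measure the spread between these libraries.

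Cells enter mitosis when cyclin B and CDK1 become active, and they leave it when the anaphase-promoting complex, a ubiquitin ligase, marks cyclins and securin for destruction. In between, kinetochores tie chromosomes to the spindle, and a checkpoint holds the cell until all of them are attached. Most of the genes behind these steps are transcribed together late in the cell cycle, and their summed messenger RNA is widely used as a sign of how many cells of a culture are cycling. In bulk RNA, fewer cells in G2 and mitosis and less mitotic RNA per cell cannot be told apart.

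Libraries held between 2455627 and 4988062 counts, and levels are given in CPM, counts scaled to a common library total that was adjusted by the trimmed mean of M-values (TMM). A count of 0 allows up to 3 counts, or between 0.619 and 1.22 CPM on that scale. JUN (Entrez 3725, chromosome 1, 59242517 to 59249720, gene positions on GRCh37 throughout) stood at 25.03, 36.2 and 9.32 CPM across NTC replicates 1, 2 and 3, and at 171.5 and 265.5 CPM across sgJUN#1 replicates 1 and 2, with no overlap between the groups. Its log2 fold change was 3.25 (SE 0.48), at an edgeR adjusted p-value of 0.0733, which did not pass 0.05, while DESeq2 gave 3.24 at an adjusted p-value of 7.16e-12, which did. It was 2.84 (SE 0.28) in edgeR, at an adjusted p-value of 0.00121, once NTC replicate 3 was left out, the library in which JUN was lowest. Of 10 basal epithelial markers, KRT5 ranged from 151.7 to 454.3 CPM and EGFR from 278.0 to 673.4 CPM, whereas KRT14 and TP63 reached at most 3.26 and 7.51 CPM and KRT17 at most 16.3 CPM. Log2 fold changes of the 10 ran from -1.16 (SE 0.59) for KRT14 to 2.27 (SE 0.43) for S100A2, 6 of them positive, and 0 passed the edgeR threshold. Of 12 markers of other cell types 3 passed the filter on low counts (VWF, ESR1 and PGR), CD3E was at 0 in all libraries, 0 of these passed the threshold, and their summed level ran from 15.1 to 25.3 CPM.

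One control library stood apart over the mitotic genes. The 44 genes took 0.651% of the counts in NTC replicate 1 (95% Wilson interval 0.642% to 0.659%), 0.680% in NTC replicate 2 (0.669% to 0.690%) and 0.309% in NTC replicate 3 (0.304% to 0.315%). In sgJUN#1 they took 0.489% (0.483% to 0.495%) in replicate 1 and 0.459% (0.451% to 0.467%) in replicate 2, so both sgJUN#1 libraries lay between the NTC libraries. These intervals cover counting error only. NTC replicate 3 was the lowest of the 5 libraries for 42 of the 44 genes, as it was for 27.5% of all tested genes. For 43 of the 44 it lay over 1.5 times below both other NTC libraries, which held for 7.12% of all tested genes. The highest library was NTC replicate 1 for 21 of them (17.5% of all tested genes) and NTC replicate 2 for 22 (15.9%). The mean of NTC replicates 1 and 2 divided by NTC replicate 3 ran from 1.24 for CDC25B to 3.61 for MAD2L1, with a median of 2.30 against 0.985 over all tested genes. Fold changes and counts of genes are therefore given with NTC replicate 3 and without it.

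**Figure D1:**
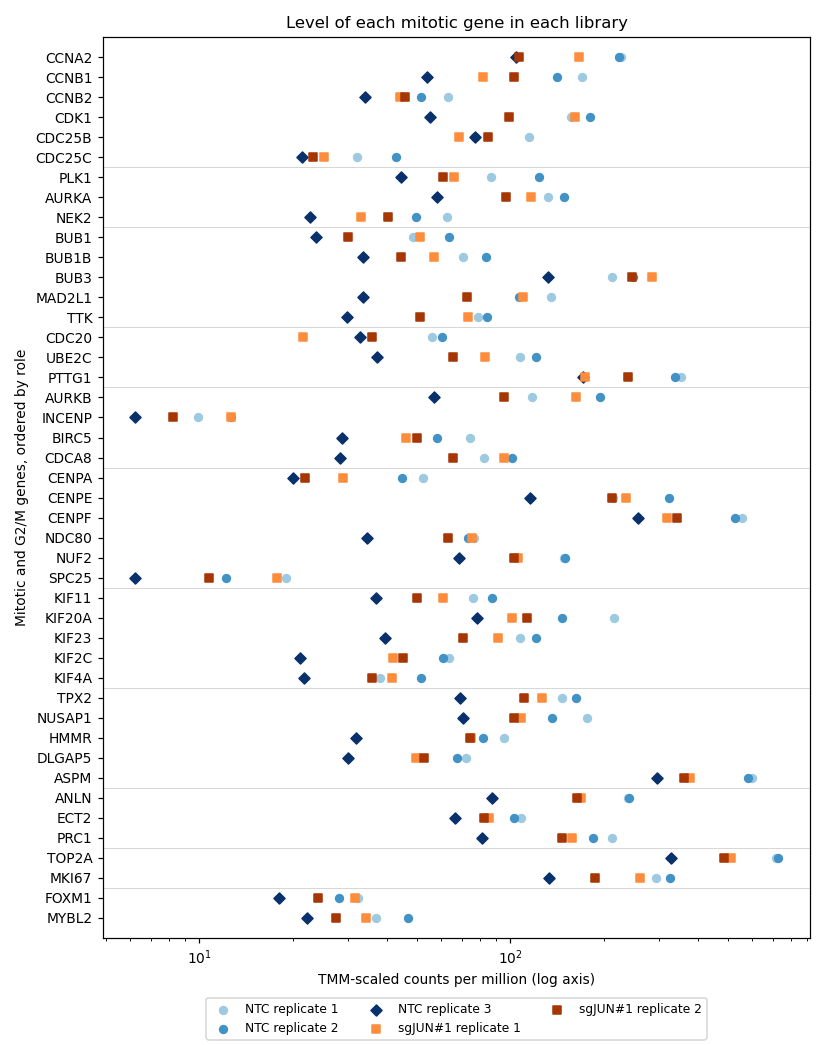
Level of each of the 44 mitotic genes in each library, in TMM-scaled CPM on a log axis, with 1 row per gene and grey lines between roles. The dark diamonds of NTC replicate 3 are the lowest points in 42 rows, and both sgJUN#1 libraries lie between it and the other NTC libraries in 30 rows.

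To ask whether raised JUN came with a different mitotic program, each gene was tested between sgJUN#1 and NTC in a fit over all 13616 tested genes. With all 5 libraries 0 of the 44 genes passed the threshold of edgeR's quasi-likelihood test, an adjusted p-value under 0.05, which 0.206% of all tested genes passed. DESeq2 and limma-voom also called 0 of the 44, beside 1.03% and 0.140% of all genes. Before adjustment 1 of them, CDC20, had an edgeR p-value under 0.05, as did 8.38% of all tested genes. The adjusted p-values ran from 0.552 to 0.999. The log2 fold change was negative for 33 genes and positive for 11 (51.0% of all tested genes were negative), with a median of -0.15 against -0.0082 over all tested genes, and it was within 0.5 of 0 for 42 of the 44. In no gene did the groups separate, that is 0 of 44 had both sgJUN#1 libraries above or both below all 3 NTC libraries, compared with 25.0% of all tested genes.

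In 30 of the 44 genes both sgJUN#1 libraries lay above NTC replicate 3 and below NTC replicates 1 and 2, a pattern seen in 3.52% of all tested genes. NTC replicate 3 was singled out for being low in these same genes, so leaving it out lowers their fold changes by construction. It was not chosen by its level over all tested genes, so their shares are not an even background. The 44 genes also varied together and are not separate observations. Without NTC replicate 3, 43 of the 44 fold changes were negative, the exception being BUB3, and the median was -0.45. In that fit 49.7% of all genes were negative and their median was 0.0027. Both sgJUN#1 libraries were then below both remaining NTC libraries in 31 genes, as in 18.3% of all tested genes. Still 0 of the 44 passed the edgeR threshold, which 0.439% of 12987 genes passed in that fit. The adjusted p-values ran from 0.170 to 0.989. With no adjustment, 23 of the 44 had p-values under 0.05, all of them lower in sgJUN#1, beside 3.79% of the genes in that fit. The median log2 fold change was 0.03 without NTC replicate 1 and 0.03 without NTC replicate 2, so its sign changed with the control library that was left out.

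**Figure D2:**
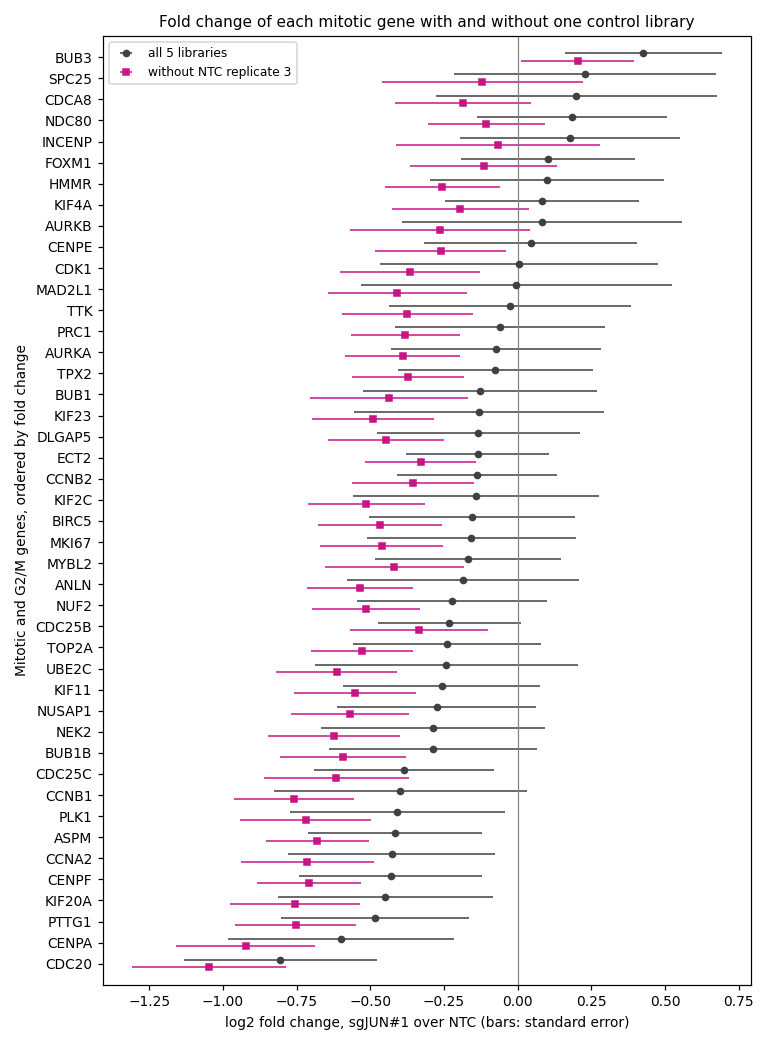
Log2 fold change of each gene, sgJUN#1 over NTC, with its standard error as a bar, from the fit with all 5 libraries (grey circles) and from the fit without NTC replicate 3 (magenta squares). Grey circles run from -0.80 for CDC20 to 0.43 for BUB3, and 43 of the 44 squares are left of 0.

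Promoters were examined to describe sequence that the listed genes share, and whether it bears on the differences between libraries was not tested. The other gene lists were not examined in this way. G2/M promoters are known for the CCAAT box, which binds NF-Y, and for the CHR element, with the letters TTTGAA or TTCGAA, which binds the MuvB complexes that silence these genes early in the cell cycle and turn them on with B-MYB and FOXM1. RefSeq promoter sequences on the build GRCh38.p14, from 250 bases before to 50 bases after each listed gene start, were at hand for 37 of the 44 genes, as 47 promoters. CCAAT occurred on either strand in 74.5% of these promoters and in 34.6% of all 35116 promoters of the table. TTTGAA occurred in 61.7% against 15.2%, TTCGAA in 6.4% against 1.45%, and CCAAT together with TTTGAA or TTCGAA in 55.3% against 6.38%. Over genes, 24 of the 37 had a TTTGAA or TTCGAA that began within 50 bases of a listed start, as did 6.24% of all 27305 genes. TGANTCA, the letters of one AP-1 site that JUN dimers bind, was in 0 of the 47 promoters and in 7.71% of all promoters. This says only that these letters are absent from these windows. Other sites of JUN dimers, such as TGACGTCA, were not searched, and those letters stand in the windows of CCNA2, CENPE, NDC80 and PRC1. The searched motifs were sought on both strands, TTCGAA and TGANTCA read the same on both, and TTTGAA can overlap a CCAAT on the other strand. A match describes the sequence and is not a binding site.

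The promoters of CDC20 and CENPA are shown as those of the lowest fold changes, those of CCNB2 and PLK1 as examples with both motifs, and that of MYBL2 as an example with neither. Capitals mark CCAAT and TTTGAA or, where the motif lies on the other strand, its reverse complement, and the sequences run 5′ to 3′ on the strand of the gene.
CDC20, chr1:43358731-43359030, plus strand: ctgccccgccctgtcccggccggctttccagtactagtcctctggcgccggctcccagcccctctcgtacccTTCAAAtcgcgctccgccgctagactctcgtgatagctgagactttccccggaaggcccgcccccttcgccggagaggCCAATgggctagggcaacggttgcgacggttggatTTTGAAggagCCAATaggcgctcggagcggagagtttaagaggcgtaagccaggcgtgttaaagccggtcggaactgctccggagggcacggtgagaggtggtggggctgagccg
CENPA, chr2:26785806-26786105, plus strand: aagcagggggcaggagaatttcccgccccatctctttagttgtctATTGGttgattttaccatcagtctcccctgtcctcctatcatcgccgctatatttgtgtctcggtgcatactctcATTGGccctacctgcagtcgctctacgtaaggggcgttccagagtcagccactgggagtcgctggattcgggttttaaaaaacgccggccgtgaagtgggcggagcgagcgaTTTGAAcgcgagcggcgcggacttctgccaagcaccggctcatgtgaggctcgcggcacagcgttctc
CCNB2, chr15:59104896-59105195, plus strand: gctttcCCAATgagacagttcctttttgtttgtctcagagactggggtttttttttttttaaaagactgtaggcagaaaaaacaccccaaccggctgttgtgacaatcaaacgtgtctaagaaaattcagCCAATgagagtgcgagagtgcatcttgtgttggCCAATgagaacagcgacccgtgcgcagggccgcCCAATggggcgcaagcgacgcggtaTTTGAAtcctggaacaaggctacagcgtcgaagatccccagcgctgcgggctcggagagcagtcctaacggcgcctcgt
PLK1, chr16:23678639-23678938, plus strand: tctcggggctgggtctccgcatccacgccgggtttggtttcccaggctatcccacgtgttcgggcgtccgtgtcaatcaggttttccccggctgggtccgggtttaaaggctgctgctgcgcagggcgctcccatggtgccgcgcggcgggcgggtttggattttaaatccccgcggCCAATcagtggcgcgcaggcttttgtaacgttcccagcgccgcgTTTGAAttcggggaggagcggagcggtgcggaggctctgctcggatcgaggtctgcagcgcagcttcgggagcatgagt
MYBL2, chr20:43666864-43667163, plus strand: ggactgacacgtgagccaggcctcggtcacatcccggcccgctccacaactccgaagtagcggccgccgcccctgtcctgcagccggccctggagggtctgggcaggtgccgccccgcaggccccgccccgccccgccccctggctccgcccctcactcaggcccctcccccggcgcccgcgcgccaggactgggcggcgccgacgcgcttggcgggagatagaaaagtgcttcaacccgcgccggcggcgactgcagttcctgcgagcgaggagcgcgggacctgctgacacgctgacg
CCNB2 held 4 CCAAT and 1 TTTGAA, CDC20 and CENPA held 2 CCAAT each, and PLK1 held 1 of each motif. The TTTGAA lay at -29 from the listed start in both CCNB2 and PLK1 and at -18 in CENPA.

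The CDK1 switch drives entry into mitosis. In the following, a log2 fold change in square brackets is that of the fit without NTC replicate 3. CCNB1 (Entrez 891, chromosome 5, 68462962 to 68474072), the cyclin that activates CDK1, stood at 169.7, 141.2 and 53.9 CPM across NTC replicates 1, 2 and 3, and at 81.7 and 102.7 CPM across sgJUN#1 replicates 1 and 2. The groups overlapped only through NTC replicate 3, and the log2 fold change was -0.40 (SE 0.43) with all libraries and -0.76 (SE 0.20) without it. CDK1 itself (Entrez 983, chromosome 10, 62538089 to 62554610) had 156.2, 179.9 and 55.01 CPM in the NTC libraries against 160.8 and 98.8 CPM in the sgJUN#1 libraries. Its fold change on the log2 scale was 0.0039 (SE 0.47), as sgJUN#1 replicate 1 lay between NTC replicates 1 and 2 and sgJUN#1 replicate 2 under both, and -0.37 (SE 0.24) without NTC replicate 3. CCNA2 (Entrez 890, chromosome 4, 122737599 to 122745038), the cyclin of S and G2 phase, had 226.6, 223.4 and 104.3 CPM in the NTC libraries against 166.8 and 106.6 CPM in the sgJUN#1 libraries, a log2 fold change of -0.43 [-0.71] (SE 0.35). Its 3′ exons overlap those of EXOSC9 on the opposite strand by up to 250 bp, and EXOSC9 held 762, 485 and 486 counts in NTC and 825 and 314 in sgJUN#1, close to the 824, 549, 470, 808 and 298 counts of CCNA2. As the handling of strand is not stated, reads of this pair cannot be told apart. CCNB2, a second B-type cyclin, had a log2 fold change of -0.14 [-0.36], and the phosphatases CDC25B and CDC25C, which remove the inhibitory phosphates from CDK1, had -0.23 [-0.33] and -0.39 [-0.61]. CDC25B was one of the 2 genes in which NTC replicate 3 was not the lowest library, with 114.7, 76.9 and 76.97 CPM in the NTC libraries against 68.5 and 84.4 CPM in the sgJUN#1 libraries.

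The kinases that build the spindle were lower in both sgJUN#1 libraries than in NTC replicates 1 and 2 and higher than in NTC replicate 3. PLK1 (Entrez 5347, chromosome 16, 23688977 to 23701688), which acts at centrosomes, kinetochores and the midbody, stood at 86.4, 123.3 and 44.6 CPM across NTC replicates 1, 2 and 3, and at 65.8 and 60.8 CPM across sgJUN#1 replicates 1 and 2. The log2 fold change of PLK1 was -0.41 (SE 0.37) and, without NTC replicate 3, -0.72 (SE 0.22). An exon of PLK1 overlaps ERN2 on the opposite strand by up to 58 bp, and ERN2 carried 118 to 247 counts against 170 to 319 for PLK1 in the same libraries. AURKA (Entrez 6790, chromosome 20, 54944445 to 54967393), the kinase of the spindle poles, had 132.3, 148.2 and 57.9 CPM in the NTC libraries against 116.6 and 96.6 CPM in the sgJUN#1 libraries, with a log2 fold change of -0.073 [-0.39] (SE 0.36). NEK2, which separates centrosomes, had -0.29 [-0.62].

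The spindle checkpoint genes included the highest fold change of the list. BUB3 (Entrez 9184, chromosome 10, 124913918 to 124929983), which recruits BUB1 and BUBR1 to kinetochores, stood at 212.9, 248.7 and 132.0 CPM across NTC replicates 1, 2 and 3, and at 285.0 and 245.4 CPM across sgJUN#1 replicates 1 and 2. The sgJUN#1 libraries were above NTC replicates 1 and 3, NTC replicate 2 fell between them, and the log2 fold change was 0.43 (SE 0.27) with all libraries and 0.20 (SE 0.19) without NTC replicate 3. The other checkpoint genes were BUB1 (-0.13 [-0.44]), BUB1B (-0.29 [-0.59]), which encodes BUBR1, MAD2L1 (-0.0043 [-0.41]), the inhibitor of CDC20, and the kinase TTK (-0.026 [-0.37]), with log2 fold changes in parentheses. MAD2L1 had, as a ratio of the highest to the lowest, the widest spread among NTC libraries, with 135.3, 106.6 and 33.5 CPM in the NTC libraries against 109.4 and 72.3 CPM in the sgJUN#1 libraries. BUB1B shares up to 240 bp of exon with PAK6 on the same strand, and PAK6 held between 97 and 212 counts against 124 to 275 for BUB1B.

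The genes of anaphase onset had the lowest median log2 fold change of the roles, -0.48 with all libraries and -0.75 without NTC replicate 3. CDC20 (Entrez 991, chromosome 1, 43824652 to 43828874), the activator of the anaphase-promoting complex that the checkpoint blocks, stood at 56.1, 60.2 and 32.8 CPM across NTC replicates 1, 2 and 3, and at 21.5 and 35.8 CPM across sgJUN#1 replicates 1 and 2. It was the second gene in which NTC replicate 3 was not the lowest library, as sgJUN#1 replicate 1 lay under it. The log2 fold change of CDC20 was -0.80 (SE 0.33), at an unadjusted edgeR p-value of 0.0348 and an adjusted one of 0.552, and -1.05 (SE 0.26) at an adjusted p-value of 0.170 without NTC replicate 3. PTTG1 (Entrez 9232, chromosome 5, 159848862 to 159855746), which encodes securin, had 353.7, 339.4 and 170.8 CPM in the NTC libraries against 173.2 and 238.6 CPM in the sgJUN#1 libraries and a log2 fold change of -0.48 [-0.75] (SE 0.32). The near-identical copies PTTG2 and PTTG3P held 8 to 29 and 14 to 36 counts where PTTG1 held 667 to 1286, so misplaced reads between them are possible but few were counted for the copies. UBE2C, the ubiquitin-conjugating enzyme that works with the complex, had a log2 fold change of -0.24 with all libraries and -0.61 without NTC replicate 3.

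The chromosomal passenger complex corrects faulty kinetochore attachments and later steers cytokinesis. Its kinase AURKB (Entrez 9212, chromosome 17, 8108051 to 8113918) stood at 117.4, 194.1 and 56.8 CPM across NTC replicates 1, 2 and 3, and at 162.0 and 95.5 CPM across sgJUN#1 replicates 1 and 2. The 2 libraries of sgJUN#1 differed from each other here and spanned NTC replicate 1, with a log2 fold change of 0.082 [-0.26] (SE 0.47). BIRC5 (Entrez 332, chromosome 17, 76210267 to 76221717), which encodes survivin, had 73.99, 58.2 and 28.8 CPM in the NTC libraries against 46.03 and 50.1 CPM in the sgJUN#1 libraries, a log2 fold change of -0.15 [-0.47] (SE 0.35). CDCA8 (Entrez 55143, chromosome 1, 38158153 to 38175391), which encodes borealin, had 82.5, 101.3 and 28.4 CPM in the NTC libraries against 95.4 and 65.1 CPM in the sgJUN#1 libraries and a log2 fold change of 0.20 [-0.18] (SE 0.48). The scaffold INCENP (Entrez 3619, chromosome 11, 61891470 to 61920641) was the least abundant of the 4 in counts, with 23 to 61 counts per library. INCENP levels were 9.90, 12.6 and 6.21 CPM in the NTC libraries against 12.6 and 8.23 CPM in the sgJUN#1 libraries, a log2 fold change of 0.18 [-0.068] (SE 0.37). All 4 fold changes were negative without NTC replicate 3, with a median of -0.22 against 0.13 with it.

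Kinetochore genes pointed in both directions. CENPA (Entrez 1058, chromosome 2, 26987157 to 27023935), the histone H3 variant that marks centromeres, stood at 52.3, 44.8 and 19.96 CPM across NTC replicates 1, 2 and 3, and at 28.9 and 21.8 CPM across sgJUN#1 replicates 1 and 2. Both sgJUN#1 libraries were just above NTC replicate 3, and the log2 fold change was -0.60 (SE 0.38) with all libraries and -0.92 (SE 0.23) without NTC replicate 3. CENPF (Entrez 1063, chromosome 1, 214776528 to 214837917), a large kinetochore and nuclear matrix protein, had 553.7, 527.1 and 257.5 CPM in the NTC libraries against 317.9 and 343.5 CPM in the sgJUN#1 libraries, a log2 fold change of -0.43 [-0.71] (SE 0.31). NDC80 (Entrez 10403, chromosome 18, 2571556 to 2616634) and SPC25 (Entrez 57405, chromosome 2, 169690642 to 169769881) are subunits of the complex that grips microtubules. NDC80 had 76.5, 72.9 and 34.6 CPM in the NTC libraries against 75.3 and 62.97 CPM in the sgJUN#1 libraries, with a log2 fold change of 0.18 (SE 0.32). SPC25 had 28 to 86 counts per library, or 18.98, 12.2 and 6.21 CPM in the NTC libraries against 17.8 and 10.7 CPM in the sgJUN#1 libraries, and a log2 fold change of 0.23 (SE 0.44). NUF2, the partner of NDC80 in that complex, had -0.22 [-0.52], and the kinetochore kinesin CENPE 0.044. The fold changes of NDC80, SPC25 and CENPE turned negative without NTC replicate 3 (-0.11, -0.12 and -0.26).

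Among the kinesins, KIF20A (Entrez 10112, chromosome 5, 137514408 to 137523412), which carries the passenger complex to the central spindle, had the lowest log2 fold change, -0.45 [-0.76] (SE 0.36). KIF20A stood at 214.5, 146.5 and 78.1 CPM across NTC replicates 1, 2 and 3, and at 101.3 and 113.1 CPM across sgJUN#1 replicates 1 and 2. KIF11, which pushes the spindle poles apart, had -0.26 [-0.55], KIF23, part of centralspindlin, -0.13 [-0.49], KIF2C, a microtubule depolymerase, -0.14 [-0.51], and the chromokinesin KIF4A 0.083 [-0.19]. KIF4B, a near-identical copy of KIF4A, held 4 to 8 counts per library against 98 to 202 for KIF4A. The spindle proteins were ASPM (-0.42 [-0.68]), NUSAP1 (-0.27 [-0.57]), DLGAP5 (-0.13 [-0.45]), TPX2 (-0.076 [-0.37]), which activates AURKA, and HMMR (0.10 [-0.26]), with log2 fold changes in parentheses. The cytokinesis genes ANLN, which encodes the contractile ring scaffold anillin, ECT2, which activates RhoA, and PRC1, which bundles the central spindle, had log2 fold changes of -0.19 [-0.53], -0.14 [-0.33] and -0.060 [-0.38]. In each of these kinesin, spindle and cytokinesis genes NTC replicate 3 was the lowest library. Exons of CENPA, CDC25C, KIF20A, KIF4A, NUSAP1, ANLN, PRC1 and FOXM1 also overlap those of a neighbour, by up to 74 bp (CDC23 with KIF20A) to 727 bp (PRC1-AS1 with PRC1), so their counts too are uncertain to the extent that reads fell there.

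The chromosomal markers of proliferation followed the same order of libraries. TOP2A (Entrez 7153, chromosome 17, 38544777 to 38574148), the topoisomerase that untangles sister chromatids, stood at 714.6, 725.3 and 327.2 CPM across NTC replicates 1, 2 and 3, and at 512.3 and 484.8 CPM across sgJUN#1 replicates 1 and 2. MKI67 (Entrez 4288, chromosome 10, 129894923 to 129924687), which encodes Ki-67, had 294.6, 324.8 and 133.1 CPM in the NTC libraries against 261.1 and 187.5 CPM in the sgJUN#1 libraries. For TOP2A the log2 fold change was -0.24 (SE 0.32) and, without NTC replicate 3, -0.53 (SE 0.17). For MKI67 it was -0.16 (SE 0.36) and -0.46 (SE 0.21). FOXM1 and MYBL2 are the transcription factors that drive G2/M genes. FOXM1 (Entrez 2305, chromosome 12, 2966846 to 2986340) had 32.5, 28.1 and 17.97 CPM in the NTC libraries against 31.6 and 23.97 CPM in the sgJUN#1 libraries, and MYBL2 (Entrez 4605, chromosome 20, 42295659 to 42345135), which encodes B-MYB, had 36.9, 46.8 and 22.2 CPM in the NTC libraries against 34.3 and 27.5 CPM in the sgJUN#1 libraries. Their log2 fold changes were 0.10 [-0.12] (SE 0.29) and -0.17 [-0.42] (SE 0.31).

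To see whether the list as a whole or single steps differed, each gene was also expressed as a share of the summed counts of the 44 genes in its library, a scale on which a common difference of all of them cancels. This scale was chosen after the data were seen. On it the sgJUN#1 pair exceeded every NTC library for 5 genes and lay under every NTC library for 5 others. Divided by the same sums, 6.82% of all tested genes were higher and 2.13% lower without overlap. The low sum of NTC replicate 3 raises its values for other genes on this scale, while among the 44 it cancels. These percentages are therefore not an even background for the 44 genes. In CPM, 12.2% of all tested genes were higher and 12.8% lower without overlap. The 5 of 44 in each direction are close to these CPM shares, so the separation alone does not mark the genes below as different. BUB3 made up 3.74% ± 0.600 (SD, n = 3) of the summed counts in NTC and 5.53% ± 0.185 (SD, n = 2) in sgJUN#1, and NDC80 1.12% ± 0.0424 (SD, n = 3) of the summed counts in NTC and 1.44% ± 0.0785 (SD, n = 2) in sgJUN#1. HMMR, KIF4A and TPX2 were the other 3 that were higher. CDC20 made up 0.939% ± 0.132 (SD, n = 3) of the summed counts in NTC and 0.607% ± 0.255 (SD, n = 2) in sgJUN#1, and CENPA 0.701% ± 0.0702 (SD, n = 3) of the summed counts in NTC and 0.527% ± 0.0663 (SD, n = 2) in sgJUN#1. The large spindle and kinetochore genes ASPM and CENPF made up 9.11% and 8.20% on average in NTC and 7.71% and 6.93% in sgJUN#1. TOP2A, also lower, made up 10.7% and 10.4%, but its groups all but touched. They came closest at 10.68% in NTC replicate 2 and 10.66% in sgJUN#1 replicate 2. These shares are a description of 5 libraries and were not tested.

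Mitotic genes were set against genes of S phase, which are expressed earlier in the cycle. Of 32 S phase genes, all tested, 30 had a positive and 2 a negative log2 fold change, 0 passed the edgeR threshold, and the median was 0.36, where 51.0% of all tested genes were negative. Relative to the NTC mean, the mean log2 CPM of the S phase genes was 0.26, 0.48 and -0.74 in NTC replicates 1 to 3 and 0.71 and 0.076 in sgJUN#1 replicates 1 and 2. Of the sgJUN#1 libraries replicate 1 thus lay above all NTC libraries and replicate 2 below NTC replicates 1 and 2. NTC replicate 3 was the lowest NTC library for 31 of the 32. The extremes were GINS3, part of the replicative helicase, at 0.89 [0.53] (SE 0.42), and TYMS, thymidylate synthase, at -0.12 [-0.44] (SE 0.35). Without NTC replicate 3 the median of the S phase genes was 0.10, and 10 fold changes were negative. Within each library the summed counts of the 44 mitotic genes divided by those of the S phase genes gave 2.35, 2.23 and 1.81 in NTC and 1.42 and 1.78 in sgJUN#1. The means were 2.13 ± 0.284 (SD, n = 3) and 1.60 ± 0.253 (SD, n = 2). Both sgJUN#1 ratios were under all NTC ratios, by a narrow margin between sgJUN#1 replicate 2 and NTC replicate 3. With every gene weighted equally, the mean log2 CPM of the mitotic genes minus that of the S phase genes, both relative to NTC, was 0.12, -0.081 and -0.038 in NTC and -0.70 and -0.24 in sgJUN#1, again without overlap, and NTC replicate 2 was then the lowest NTC library. For the other mitotic and condensin genes the ratio of summed counts was 1.68, 1.65 and 1.39 in NTC and 1.21 and 1.36 in sgJUN#1. These ratios and differences, too, were chosen after the data were seen and were not tested.

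**Figure D3:**
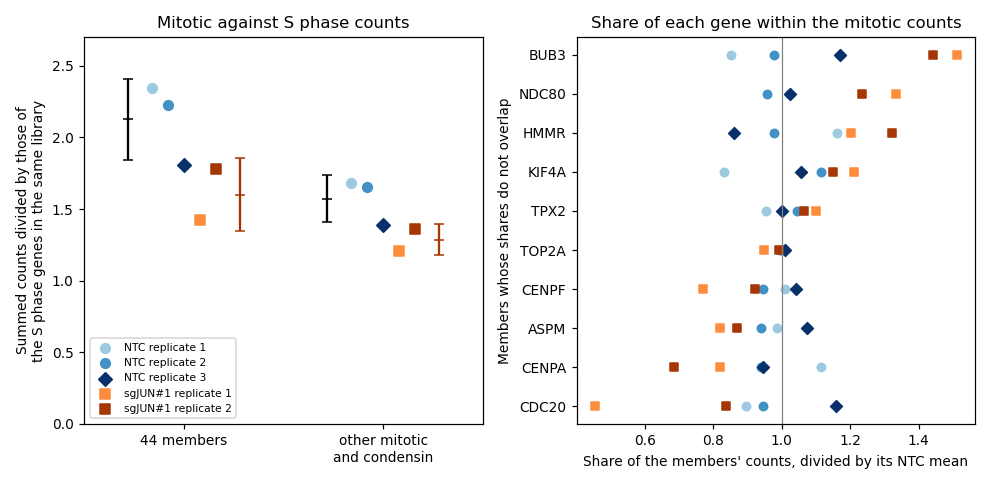
Left, summed counts of the 44 mitotic genes and of the other mitotic and condensin genes, divided by those of the S phase genes in the same library (points), with the mean and SD of 3 NTC (black) and 2 sgJUN#1 (brown) libraries beside them. Right, share of each gene within the counts of the 44 genes, divided by its NTC mean, for the 10 genes whose groups do not overlap, from CDC20 at the bottom to BUB3 at the top. They were picked by that separation, which was not tested.

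NTC replicate 3 was low in the rest of the mitotic machinery too. Of 59 further mitotic genes 57 were tested, 24 had a positive and 33 a negative log2 fold change, 0 passed the edgeR threshold, and NTC replicate 3 was the lowest NTC library for 56. The highest was DSN1, a kinetochore protein, at 0.57 [0.23] (SE 0.39), and the lowest TROAP, a spindle protein, at -0.60 [-0.97] (SE 0.46). Their median moved from -0.049 to -0.33 without NTC replicate 3, when 50 of 57 were negative. In the condensin complexes, which compact chromosomes, 0 of 8 subunits passed, 4 were positive and 4 negative, and the median was 0.015 [-0.29]. NCAPD2 had the lowest value, -0.57 [-0.77] (SE 0.25), with 139.5, 150.6 and 91.2 CPM in the NTC libraries against 88.5 and 81.6 CPM in the sgJUN#1 libraries and a narrow gap between the groups, and NCAPH2 the highest, 0.35 [0.29] (SE 0.21).

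The subunits of the anaphase-promoting complex and its partners, which are needed outside mitosis too, were less low in NTC replicate 3, with a mean log2 CPM of -0.21 relative to the NTC mean against -0.78 for the 44 mitotic genes. Of 15 tested genes of 16, 6 were positive and 9 negative, 0 passed the edgeR threshold, and the median was -0.059 [-0.055]. The extremes were ANAPC13 at 0.45 [0.22] (SE 0.26) and CDC23 at -0.25 [-0.40] (SE 0.23). Of 22 genes that control G2/M transcription, among them MuvB, E2F, pocket protein and NF-Y genes, 0 passed, 14 were positive and 8 negative, with a median of 0.040 [-0.061]. E2F2 was highest, at 1.06 [0.69] (SE 0.56), and NFYB, a subunit of the CCAAT-binding factor, lowest, at -0.70 [-0.56] (SE 0.27). NFYB stood at 85.3, 56.2 and 92.3 CPM in the NTC libraries against 56.1 and 39.7 CPM in the sgJUN#1 libraries, where the groups all but touched.

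Of 15 genes that slow the cell cycle, 14 were tested, 8 had positive and 6 negative log2 fold changes, and 0 passed the edgeR threshold, with a median of 0.073 [-0.064]. CDKN1A (1026 in Entrez), which encodes the CDK inhibitor p21, was the highest and stood at 107.0, 116.0 and 81.2 CPM across NTC replicates 1, 2 and 3, and at 178.5 and 225.4 CPM across sgJUN#1 replicates 1 and 2. The sgJUN#1 pair was the higher, with a gap to the NTC libraries. The log2 fold change of CDKN1A was 1.00 [0.86] (SE 0.22) at an edgeR adjusted p-value of 0.176, which did not pass, and with DESeq2 it was 1.005 at an adjusted p-value of 0.0313, which did. The lowest was CDKN1C, which encodes p57, at -2.00 [-1.26] (SE 0.97), with 89.1, 11.4 and 154.2 CPM in the NTC libraries against 27.04 and 15.03 CPM in the sgJUN#1 libraries, so that NTC replicates spanned the sgJUN#1 libraries. In NTC replicate 3, where mitotic genes were lowest, CDKN1A was at its lowest and CDKN1C at its highest level of the 5 libraries. Whether either gene, JUN, which was also lowest there, or the marker EGFR, which was highest there at 673.4 CPM, has a part in the low mitotic level of that library was not tested.

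**Figure D4:**
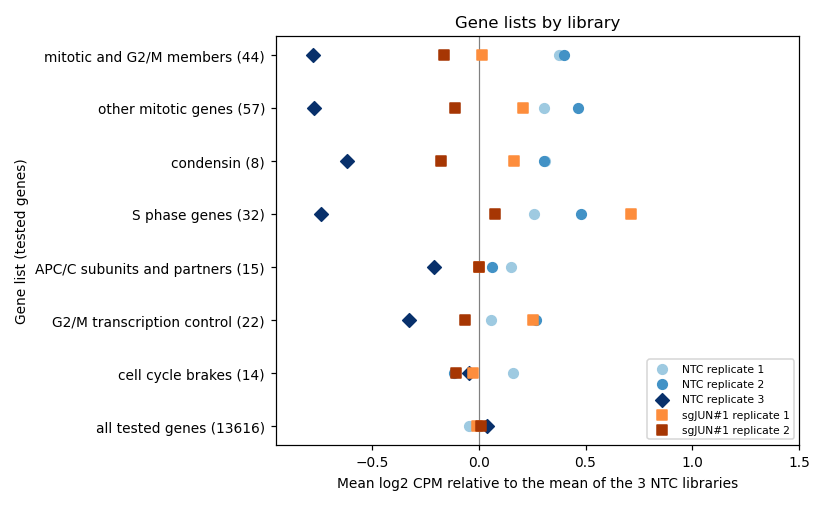
Mean log2 CPM of each gene list in each library, relative to the mean of the 3 NTC libraries, with the number of tested genes in parentheses. The 44 mitotic genes stand at 0.38, 0.40 and -0.78 in NTC and at 0.017 and -0.16 in sgJUN#1, while the mean over all tested genes stays within 0.05 of 0.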

How the data were processed

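Messenger RNA was measured with the QuantSeq 3′ mRNA-Seq kit (FWD), which reads the 3′ end of a transcript. The authors deposited raw read counts for each gene, made from reads that, per the labels, were trimmed with cutadapt 4.2 and aligned to hg19 with Bowtie2 2.3.5.1. The study names countOverlaps for its RNA sequencing, and annotation, strand and molecular identifiers are not given in the sources used here, so PCR copies may count as reads. Symbols (23308 of 23459 genes) came from RefSeq names on GRCh38.p14, and positions and exon overlaps from GENCODE on GRCh37.

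Groups came from sample titles. Counts were fitted with edgeR 4.0.16 in R 4.3.3 (TMM, filterByExpr, robust quasi-likelihood F test, group as the only term), which kept 13616 genes, with Benjamini-Hochberg adjustment over all of them and a threshold of 0.05. SE was obtained from F as the absolute log2 fold change over its root. Log2 CPM used a prior count of 2. DESeq2 1.42.0, limma-voom (limma 3.58.1), other scalings and filters, left-out libraries and a replicate block were alternatives. The fits were tested on simulated data that had no outlying library and larger fold changes than those of the mitotic genes. Library totals ran from 2455627 to 4988062 counts. The SE of the mitotic genes had a median of 0.354 with all libraries and 0.209 without NTC replicate 3.

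The members and lists were chosen with earlier results of these data known. The lists were condensin, other mitotic, APC/C, G2/M transcription control, cell cycle brake and S phase genes, and markers of basal epithelium and of other cell types. Values per library are given for JUN, for 12 members chosen for their role and for the 5 highest and 5 lowest fold changes, and from each list the genes with the highest and lowest fold change are named. Further members are named with their values where a paragraph calls for them, and these were chosen after the values were seen.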

Additional observations from a re-analysis of the deposited data

How the results depend on the processing

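For single mitotic genes, 458 recomputed log2 fold changes kept their direction and their side of the threshold and 70 changed sign. In each of 12 alternatives 0 of the 44 mitotic genes passed. The count over all genes, 28 with all libraries, was 140 with DESeq2, 148 without a filter and 18 when every library needed 10 counts or more, and ran from 10 to 57 across fits that each left out 1 library (10 without NTC replicate 1, 56 without NTC replicate 2 and 57 without NTC replicate 3). Why these counts differ was not tested. The median of the mitotic genes ran from -0.45 to 0.03 in those fits. Groups did not overlap in 0 of the 44 genes in all and, when 1 library was left out, in 0 to 31 genes. There was 1 without NTC replicate 2, 31 without NTC replicate 3 and 3 without sgJUN#1 replicate 2. Without NTC replicate 3 all 31 were lower, beside 18.3% of all tested genes, and 0 were higher, beside 18.8%. NTC replicate 3 was low in these genes, so its removal favours that direction and these shares are not an even background. For the other fits the share over all genes was not computed, so their counts cannot be set against a background. Of the cell cycle brakes 1 gene passed with DESeq2 and 1 without a filter, CDKN1A in both, and 0 to 1 passed across fits that left out 1 library (CDKN1C without NTC replicate 2, at an adjusted p-value of 0.0324). Of the epithelial markers 1, S100A2, passed with DESeq2, and 0 to 1 passed when 1 library was left out (S100A2 without sgJUN#1 replicate 2).

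Both groups have a replicate 1 and a replicate 2, but no label ties a number to a day or batch. In the deposited counts the library names of replicate 1 of both groups are consecutive, and so are those of replicate 2. NTC replicate 3 has no sgJUN#1 neighbour of this kind. What the names stand for is not stated, so whether libraries were handled in sets cannot be told. The difference between replicates 1 and 2 in NTC correlated with that in sgJUN#1 at 0.0146 over genes. Over the 44 mitotic genes this correlation was -0.37. The main fit did not treat the libraries as paired. With the replicate block, which leaves NTC replicate 3 without weight in the contrast, 103 genes passed in all, 0 of the 44, the median was -0.46, and JUN passed at an adjusted p-value of 0.000115. Log2 fold changes that changed sign under the block were CDK1 -0.40, AURKB -0.27, INCENP -0.078, CDCA8 -0.20, CENPE -0.23, NDC80 -0.11, SPC25 -0.13, KIF4A -0.18, HMMR -0.25 and FOXM1 -0.13.

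Other signs changed were, with limma-voom, AURKA 0.041, MAD2L1 0.21, TTK 0.12, KIF23 0.032, KIF2C 0.048, TPX2 0.020 and PRC1 0.060, with library size alone CDK1 -0.0068 and without a filter CDK1 -0.0034. Over fits that left out 1 library, the ranges of genes that changed sign were CCNB2 -0.36 to 0.077, CDK1 -0.40 to 0.31, AURKA -0.39 to 0.17, NEK2 -0.62 to 0.041, BUB1 -0.58 to 0.19, MAD2L1 -0.41 to 0.40, TTK -0.37 to 0.21, UBE2C -0.61 to 0.044, AURKB -0.35 to 0.57, INCENP -0.19 to 0.43, BIRC5 -0.47 to 0.16, CDCA8 -0.18 to 0.54, CENPE -0.26 to 0.44, NDC80 -0.11 to 0.38, SPC25 -0.20 to 0.70, KIF23 -0.49 to 0.15, KIF2C -0.51 to 0.12, KIF4A -0.19 to 0.38, TPX2 -0.37 to 0.15, NUSAP1 -0.57 to 0.035, HMMR -0.26 to 0.40, DLGAP5 -0.45 to 0.091, ANLN -0.53 to 0.024, PRC1 -0.38 to 0.20, MKI67 -0.46 to 0.071, FOXM1 -0.12 to 0.30 and MYBL2 -0.42 to 0.077. The fewest counts were those of INCENP (23 to 61 per library) and SPC25 (28 to 86).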
